A study of Mus musculus with 8 samples.

Results

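Chrysotile and amosite, 2 asbestos fibres of different mineral families, were compared in cultured fat cells by setting the 2 arrays titled chrysotile against the 2 titled amosite, 4 of the 8 arrays of the study. All 55681 non-control probes entered the comparison, and 22909 genes passed the filter on dim probes. The cells were mature adipocytes differentiated from the mouse 3T3-L1 preadipocyte line, an established line of embryonic origin that stores lipid when it is induced. Chrysotile and amosite cultures had each received their fibre at 10 mg/cm2, as the labels write the dose, and RNA was taken after 72 h. Crocidolite cultures had the same dose and time, and control cultures had physiological saline. These 2 further groups, with 2 arrays each, are given here as values beside the comparison and share 1 estimate of the spread with it. Medium with fetal bovine serum was common to all cultures, and no genotype or other agent is listed. The labels speak of duplicates without saying whether they were separate cultures, so p-values measure only how far these samples differ, which may be technical spread.

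Chrysotile is a serpentine, a magnesium silicate whose sheets roll into thin curled fibres, while amosite is an iron-rich amphibole with straight and stiff fibres. Lung and pleural cells that meet such fibres are known to answer through NF-kB and AP-1, transcription factors that switch on chemokines, acute-phase proteins and matrix proteases, and through iron and oxidant handling genes. Adipocytes secrete many of the same proteins, among them the chemokine Ccl2, the serum amyloid Saa3 and the lipocalin Lcn2. A result in bulk RNA does not tell fewer cells of a type and less RNA per cell apart.

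Levels are log2 intensities relative to the 75th percentile of the same array, so that 0 is the intensity at that percentile and 1 unit is a 2-fold step. The 75th percentile lay between 340.1 and 453.4 intensity units and between 56.2% and 62.8% of probes were well above background on an array. All 10 adipocyte markers, among them Adipoq, Pparg and Plin1, and all 8 preadipocyte and fibroblast markers were above background on both arrays of each of the 4 groups. Arrays with the same replicate number deviated together, and the replicate differences had an SD over genes of 0.43 for chrysotile, 0.38 for amosite, 0.40 for crocidolite and 0.54 for saline. The difference between the means of chrysotile and amosite had an SD of 0.30 over the same genes, where averaging 2 arrays lowers the spread. Between single arrays of the 2 fibres it was 0.32 for replicate 1 and 0.42 for replicate 2. Each group filled 1 row of the slide and each replicate number 1 column, so row and group cannot be told apart, nor column and number, and the number of arrays limits the precision.

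The question was which transcripts of the fat cell differ between a serpentine and an amphibole fibre. Genes whose chrysotile arrays both lay above both amosite arrays included chemokines, acute-phase proteins, osteopontin, a troponin, the chromatin protein Hmga2 and dim genes such as Tigit and S100g. No gene passed the test, however. limma called 0 of 22909 genes (0% called) at an adjusted p under 0.05, with a smallest adjusted p of 0.166, while 993 genes (4.33%) had an unadjusted p under 0.05, 603 of them higher with chrysotile (2.63%) and 390 lower (1.70%). Both chrysotile arrays lay above both amosite arrays for 4071 genes (17.8%) and below them for 3586 (15.7%), 33.4% of all genes together. A difference of at least 2-fold without overlap was found for 176 genes higher with chrysotile (0.768%) and for 90 lower (0.393%). Without chrysotile replicate 1 these counts were 359 and 352, without amosite replicate 1 they were 330 and 179, and without amosite replicate 2 they were 245 and 177. Without chrysotile replicate 2 the higher genes also outnumbered the lower ones. Non-overlap is easier to meet with 1 array left in a group, so these counts are not like for like with 176 and 90. Of the 176, 108 were above background in both groups and 67 with chrysotile only. Of the 90, 47 were above background in both groups and 43 with amosite only. Genes above background with 1 fibre only could pass the filter through that fibre alone, which favours the direction they show. The median gene had a 95% interval of 0.43 to either side of its difference, so smaller differences could not be resolved, and a missed threshold does not show that the fibres act alike.

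**Figure D1:**
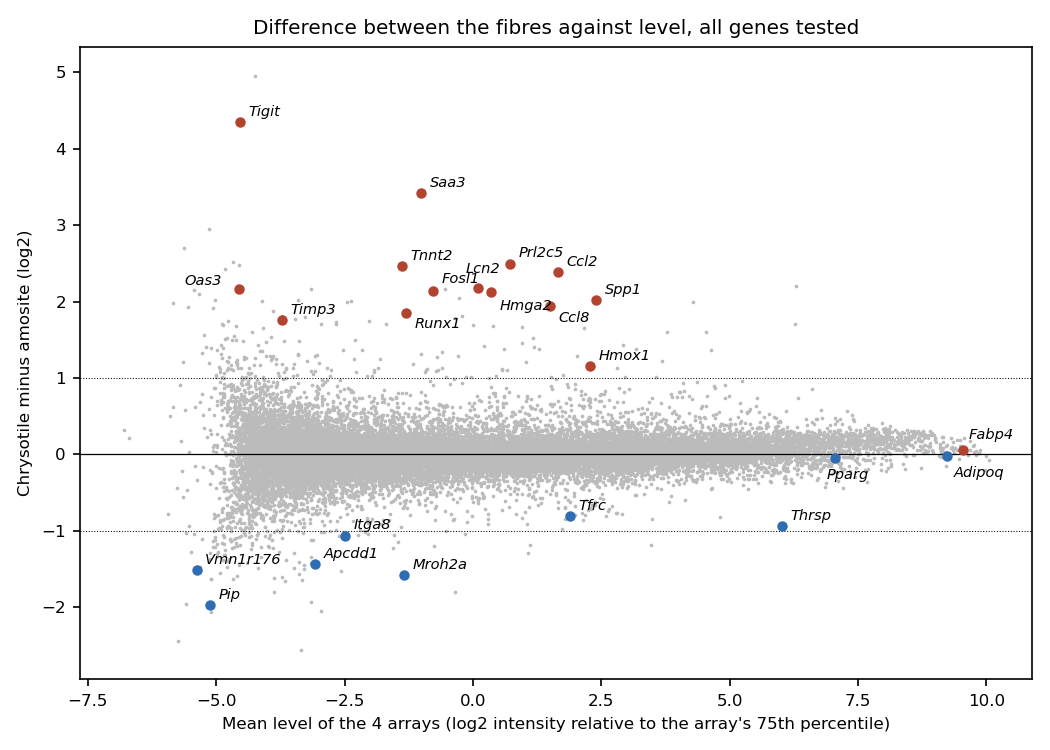
Difference between chrysotile and amosite (log2, y axis) against the mean level of the 4 arrays (x axis, log2 intensity relative to the 75th percentile of the array) for 22909 genes, 1 point each. Dotted lines mark 2-fold, red points are named genes higher with chrysotile and blue points named genes lower with chrysotile. The coloured genes were picked for display, so their numbers on either side are not a result.

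The 2 pairs of arrays that share a replicate number bear on how stable the order of genes is. The difference had the same sign in both pairs for 14248 genes (62.2%). At least 2-fold differences in both pairs were seen for 64 genes higher with chrysotile and for 22 lower.

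Tnnt2 and Oas3 had the smallest p. Tnnt2, which encodes cardiac troponin T of the muscle thin filament, had levels of -0.27 and -0.01 on the chrysotile arrays, against -2.48 and -2.73 on the amosite arrays (probe at chr1:137747976-137748288, mm9, plus strand). Its crocidolite arrays read -2.08 and -1.56, and its saline arrays -2.94 and -2.93. Both chrysotile arrays stood above all 6 others, and the difference from amosite was 2.46 ± 0.21 (SE, n = 2 arrays a group), or 5.52-fold, with a 95% interval of 1.96 to 2.96. The limma adjusted p was 0.166 for Tnnt2 and Oas3, 0.733 for Bhlha9 and between 0.901 and 1.00 for every other gene named here.

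Hmga2, a chromatin protein of embryonic and growing cells, read 1.39 and 1.45 with chrysotile, against -0.30 and -1.12 with amosite, -0.05 and -0.35 with crocidolite and -0.69 and -1.22 with saline (probe at chr10:119798739-119798798, minus strand). Its chrysotile arrays lay close together and above all others, and the difference was 2.13 ± 0.31 (4.38-fold, 95% interval 1.39 to 2.87). Prl2c5, a proliferin, read 2.17 and 1.78 with chrysotile, against 0.20 and -1.25 with amosite, and 2.497 ± 0.64 separated the means. The proliferins are a family of near-identical copies, and the share of each in this probe's signal is uncertain. Timp3, an inhibitor of metalloproteinases bound to matrix, read -2.78 and -2.91 with chrysotile, against -4.50 and -4.71 with amosite and -3.28 and -3.25 with saline. The difference between the fibres was 1.75 ± 0.24 but 0.58 with normexp background correction, and only 1 of the 2 amosite arrays was above background. Bhlha9, a basic helix-loop-helix gene known from limb development, read -1.62 and -1.33 with chrysotile, against -2.73 and -2.97 with amosite and -1.21 and -1.09 with saline (1.37 ± 0.16). Chrysotile and amosite both lay below saline for Bhlha9.

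Spp1 encodes osteopontin, a secreted phosphoprotein that binds integrins. Its levels were 2.92 and 3.92 with chrysotile, against 1.47 and 1.33 with amosite, 2.77 and 2.88 with crocidolite and 0.83 and 1.18 with saline (probe at chr5:104868502-104868561, plus strand). The groups did not overlap, and the difference was 2.02 ± 0.32 (4.06-fold, 95% interval 1.25 to 2.80). Runx1, a transcription factor known from blood cell formation, had -0.93 and 0.17 with chrysotile, against -2.06 and -2.39 with amosite, -0.09 and -0.21 with crocidolite and -2.26 and -2.39 with saline. Amosite and saline overlapped for Runx1, crocidolite lay within the range of chrysotile, and chrysotile stood apart from amosite by 1.85 ± 0.34 (3.59-fold). Acsbg1, an acyl-CoA synthetase, read -0.70 and -0.05 with chrysotile, against -2.04 and -2.44 with amosite (difference 1.86 ± 0.29), but a second probe of the gene had a difference of -0.27.

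**Figure D2:**
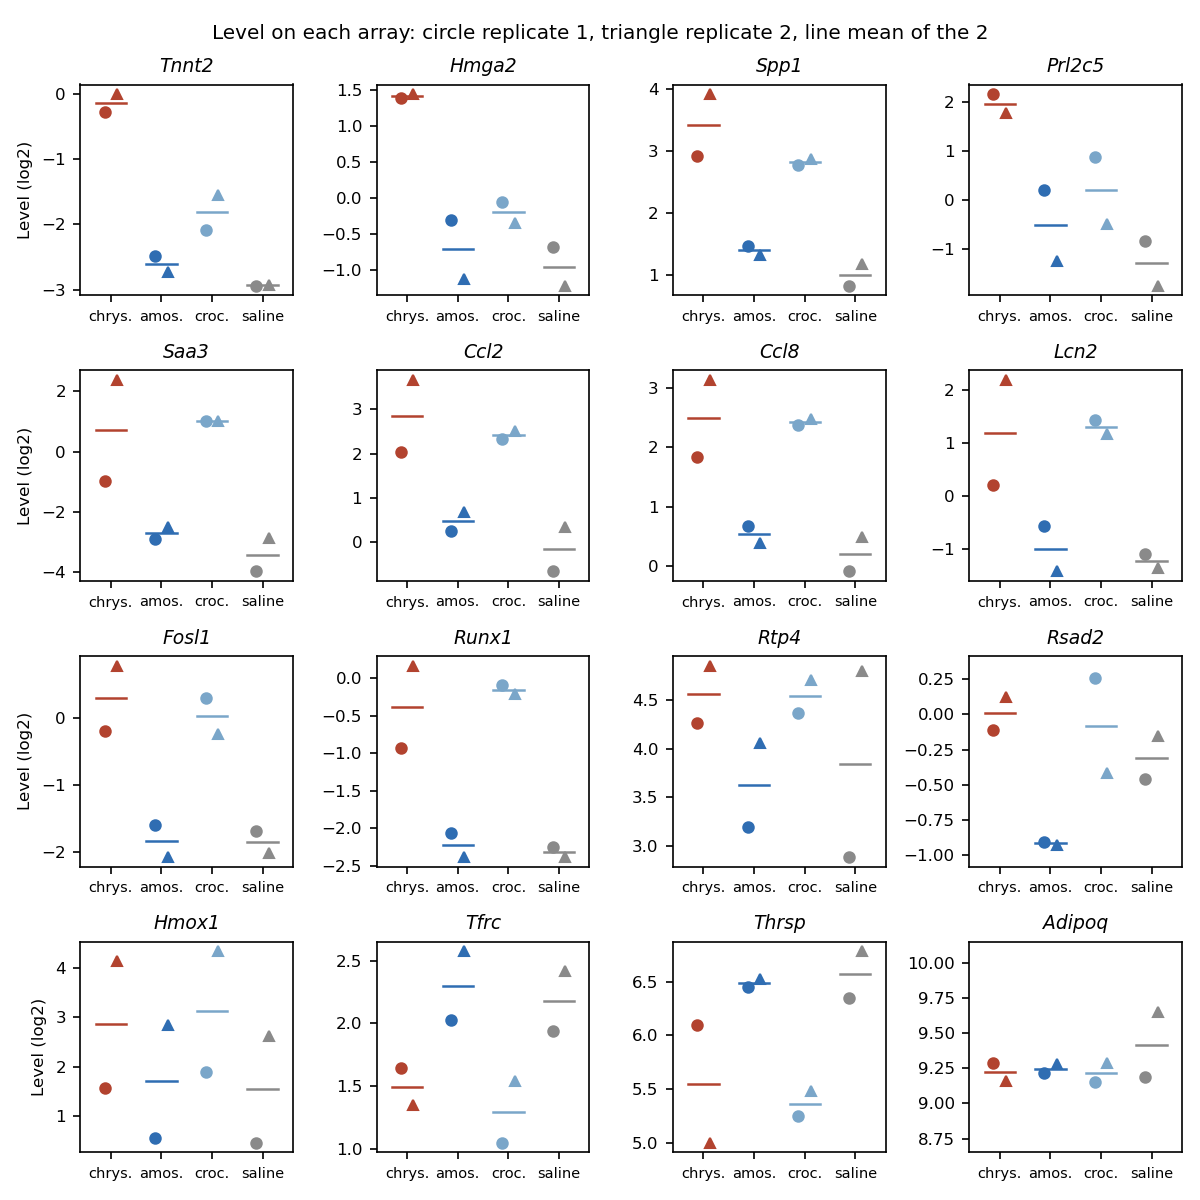
Level on each array (y axis, log2 intensity relative to the 75th percentile of the array) of 16 genes in the chrysotile, amosite, crocidolite and saline groups (x axis). Circles are replicate 1, triangles replicate 2 and lines the mean of both, and the amosite points lie near the saline points for Tnnt2, Spp1, Ccl2, Fosl1 and Runx1, with chrysotile above them.

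Cytokines and chemokines recruit and instruct immune cells. Of 20 measured genes of this list, 18 had a positive difference and 15 lay apart with chrysotile higher, against 17.8% of all genes, and 0 lay apart with chrysotile lower. The list median was 0.67, against 0.01 over all genes tested. It was 0.36 between the replicate 1 arrays, 0.97 between the replicate 2 arrays and 0.33 over all probes without the filter. Relative to the same saline arrays, which both values share, the list median was 0.70 for chrysotile and -0.02 for amosite. Il1a, Il1b and Tnf were among 9 members that did not pass the filter on dim probes.

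Ccl2 (MCP-1), which attracts monocytes, read 2.04 and 3.67 with chrysotile, against 0.26 and 0.68 with amosite, 2.32 and 2.51 with crocidolite and -0.66 and 0.35 with saline (probe at chr11:81850650-81850709, plus strand). Its difference was 2.38 ± 0.57 (5.22-fold, 95% interval 1.01 to 3.76). Ccl8, another monocyte chemokine, read 1.84 and 3.13 with chrysotile, against 0.68 and 0.39 with amosite (difference 1.95 ± 0.42). Neither gene overlapped between the fibres, and the chrysotile replicate 2 array was the higher of its group in both. Ccl9, a chemokine of myeloid cells, stood at 0.59 and 2.97 with chrysotile, against -0.06 and 0.29 with amosite, a difference of 1.66 ± 0.76 whose 95% interval of -0.19 to 3.51 includes 0. Cxcl1, a neutrophil chemokine, had a difference of 0.97 ± 0.41, and the alarmin Il33 one of 0.93 ± 0.31. For Il6 the arrays overlapped, with -1.26 and -0.14 with chrysotile and -1.60 and -1.15 with amosite (0.68 ± 0.52).

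Acute-phase and complement genes, which encode secreted proteins of the innate defence, had a median difference of 0.48 over 27 measured members. A positive difference was found in 24 of them and 11 lay apart with chrysotile higher, against 17.8% of all genes. The median was 0.11 between the replicate 1 arrays and 0.97 between the replicate 2 arrays. Without chrysotile replicate 2 it was 0.13, and without chrysotile replicate 1 it was 0.98. Saa3, a serum amyloid made in adipocytes and macrophages, read -0.97 and 2.38 with chrysotile, against -2.92 and -2.50 with amosite, 1.00 and 1.03 with crocidolite and -3.97 and -2.87 with saline (probe at chr7:53970389-53970448, minus strand). The fibres did not overlap, but the 2 chrysotile arrays lay farther from each other than the lower one did from amosite, and the difference of 3.42 ± 1.01 had a 95% interval of 0.97 to 5.87. Lcn2, which binds bacterial siderophores, read 0.20 and 2.19 with chrysotile, against -0.56 and -1.42 with amosite (2.18 ± 0.63). Serpina3g, a serine protease inhibitor from a cluster of similar genes, read -0.21 and 1.61 with chrysotile, against -1.41 and -0.81 with amosite (1.81 ± 0.57), and cross-hybridisation within the cluster was not analysed here.

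Genes that NF-kB is known to induce or that restrain it had a smaller median, 0.16 over 21 measured members, with 9 apart higher and 2 apart lower, against 17.8% and 15.7% of all genes, and 0.08 without chrysotile replicate 2. Tlr2, a receptor for bacterial lipoproteins, read 0.78 and 1.49 with chrysotile, against 0.13 and -0.10 with amosite (1.12 ± 0.28). Bcl3, a nuclear IkB protein, had a difference of 0.89 ± 0.38, and Nfkbie, an inhibitor that holds NF-kB in the cytoplasm, one of 0.73 ± 0.22. In the inflammasome and IL-1 family list 6 of 14 measured genes lay apart with chrysotile higher and 0 lower. Il1rl1, the receptor of Il33, read -1.11 and -0.57 with chrysotile, against -2.01 and -3.08 with amosite (1.70 ± 0.42), and Casp4 (caspase-11) 2.05 and 2.78 with chrysotile, against 1.55 and 1.58 with amosite (0.85 ± 0.23). Ligand and receptor of the Il33 pair thus both stood higher with chrysotile on both arrays.

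The 250 bases before the transcription start were searched on both strands for the NF-kB consensus. All list genes with a promoter in the table entered, measured or not. RefSeq promoters of build GRCm38.p6 were at hand for 20 genes of the cytokine list, 18 of the NF-kB list and 19 of the acute-phase list. The consensus was found in 9 (45%), 9 (50%) and 3 (15.8%) of them, and in 8.23% of 27025 genes with a promoter in the table. Other lists held it as well, with 25% of interferon response promoters and 28.6% of those of TGF-beta, SRF and YAP targets. For matrix proteases and the plasminogen system the share was 5.88%. A match is a description of the letters and not a site of binding. The promoters of Ccl9, Serpina3g and Tlr2, 1 named member with a match from each list, are given 5′ to 3′ on the strand of the gene with the matched bases in capitals.
Ccl9 (chr11:83578637-83578886, minus strand): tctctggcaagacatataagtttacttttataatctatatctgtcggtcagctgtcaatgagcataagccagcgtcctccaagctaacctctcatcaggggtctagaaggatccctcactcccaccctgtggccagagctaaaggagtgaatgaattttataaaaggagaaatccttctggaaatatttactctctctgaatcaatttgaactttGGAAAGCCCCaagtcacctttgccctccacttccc
Serpina3g (chr12:104235897-104236146, plus strand): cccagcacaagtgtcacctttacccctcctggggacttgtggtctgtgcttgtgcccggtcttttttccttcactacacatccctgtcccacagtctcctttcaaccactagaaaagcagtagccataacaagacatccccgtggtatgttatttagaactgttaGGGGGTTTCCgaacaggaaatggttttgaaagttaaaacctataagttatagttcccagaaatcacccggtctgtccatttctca
Tlr2 (chr3:83841609-83841858, minus strand): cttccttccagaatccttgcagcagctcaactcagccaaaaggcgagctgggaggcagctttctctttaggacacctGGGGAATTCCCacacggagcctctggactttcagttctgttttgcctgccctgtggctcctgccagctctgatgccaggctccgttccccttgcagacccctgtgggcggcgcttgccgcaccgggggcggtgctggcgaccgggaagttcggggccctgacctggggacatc

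**Figure D3:**
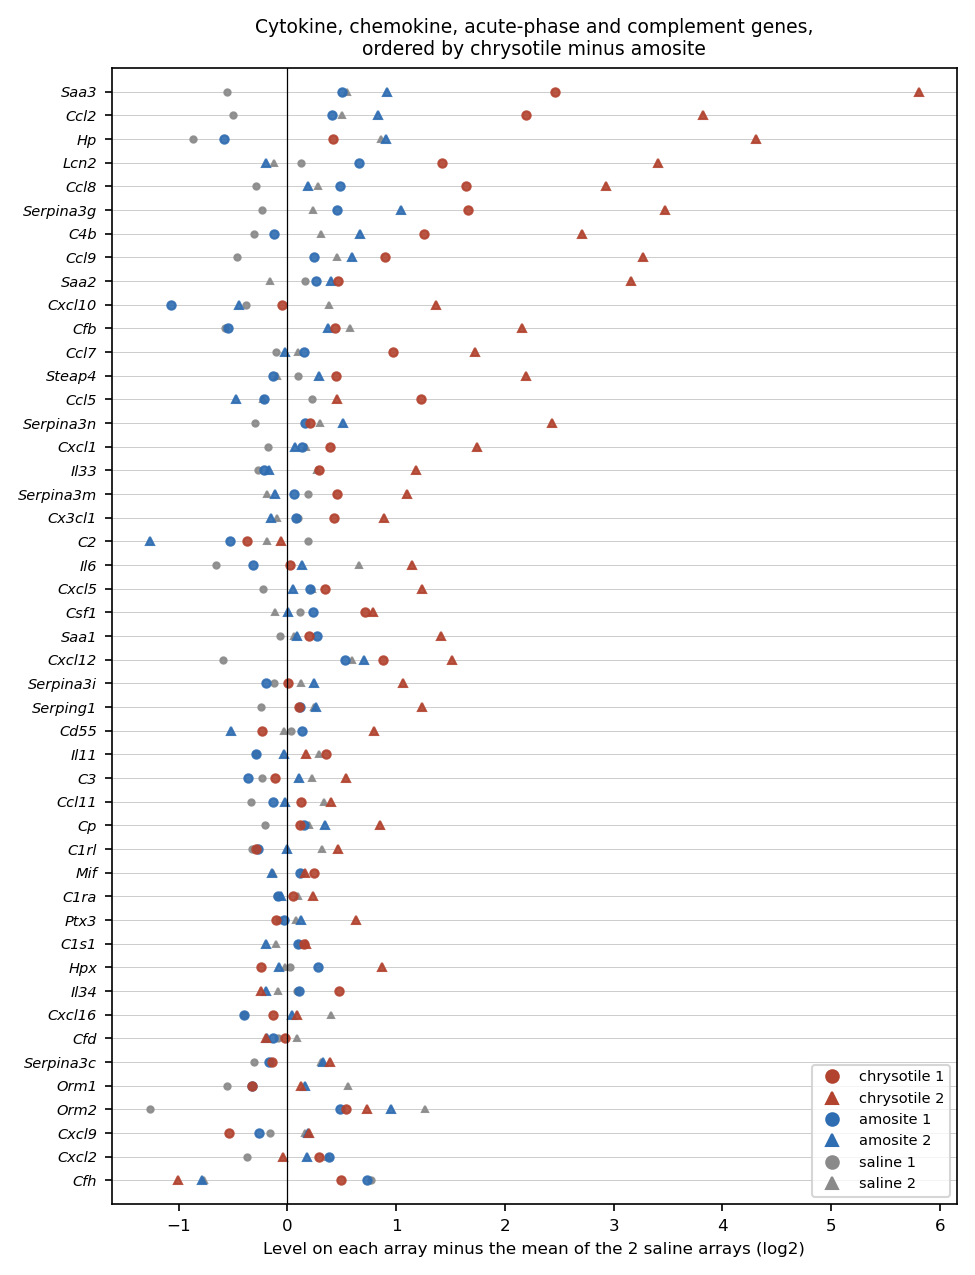
Level on each array minus the mean of the 2 saline arrays (x axis, log2) for the measured members of the cytokine and chemokine list and of the acute-phase and complement list (y axis), with the largest chrysotile minus amosite difference at the top. Red is chrysotile, blue amosite and grey saline, circles are replicate 1 and triangles replicate 2, and the chrysotile replicate 2 triangles lie farthest right for most genes of the upper rows.

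Markers of macrophages were measured beside these lists, since the cytokines are also products of macrophages. Of 8 macrophage markers, 4 were above background on both arrays with chrysotile and 5 with amosite, and Lyz2 was above background on none of the 8 arrays. Over the longer list of 22 markers, 9 were above background on both arrays with chrysotile, 10 with amosite, 9 with crocidolite and 9 with saline. The summed intensity of those 22, in units of the 75th percentile, was 66.5 and 76.9 with chrysotile, against 63.4 and 67.9 with amosite and 67.7 and 75.4 with saline. Itgam, which did not lie apart, made up most of that sum. Of the 10 list members that passed the filter, 9 had a positive difference, against 52.4% of all genes, at a median of 0.17. Only 1 lay apart with chrysotile higher, against 17.8% of all genes. That 1 was Cd68, a lysosomal glycoprotein of macrophages, at 0.46 ± 0.17. Mpeg1, a pore-forming protein of macrophages named after its values were seen, read -0.78 and 0.64 with chrysotile, against -2.01 and -0.67 with amosite, and the fibres overlapped. Of 4 mesothelial markers, Msln and Wt1 were above background on all 8 arrays and Krt19 on 3. Msln read 1.32 and 0.29 with chrysotile, against 1.34 and 0.51 with amosite, lower with chrysotile in both replicate pairs. Wt1 read -3.50 and -1.28 with chrysotile, against -4.08 and -3.10 with amosite, higher with chrysotile in both pairs. The fibres overlapped for both genes. The part of these markers in the differences was not tested.

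Interferon response genes, the antiviral programme driven by the STAT and IRF factors, lay higher with chrysotile in both replicate pairs. Of 38 measured genes, 35 had a positive difference and 24 lay apart with chrysotile higher, against 17.8% of all genes, and 0 lay apart lower. The list median was 0.48, with 0.58 between the replicate 1 arrays and 0.44 between the replicate 2 arrays. Relative to the saline arrays, shared by both values, it was 0.26 for chrysotile and -0.21 for amosite, so that saline lay between the fibres. It was 0.29 without amosite replicate 1 and 0.76 without amosite replicate 2.

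Oas3, an oligoadenylate synthetase that activates RNA decay on sensing double-stranded RNA, read -3.53 and -3.42 with chrysotile, against -5.71 and -5.57 with amosite, -3.63 and -3.68 with crocidolite and -4.88 and -4.34 with saline (probe at chr5:121203598-121203657, minus strand). It was above background on both chrysotile arrays and not well above background on either amosite array. The fitted difference was 2.16 ± 0.19, and chrysotile was at least 2.46-fold higher when each amosite array was raised to the dimmest level called above background on it. Every single-gene value written as at least N-fold was computed in this way, with the group not well above background raised. Such a value compares group means and is no strict bound, since a probe can read above that level and still not be called. The counts of genes past 2-fold use the fitted differences as they are. Rsad2 (viperin), an antiviral enzyme, read -0.11 and 0.13 with chrysotile, against -0.91 and -0.93 with amosite, 0.26 and -0.42 with crocidolite and -0.46 and -0.15 with saline (0.92 ± 0.24, 95% interval 0.34 to 1.51). The amosite arrays were the lowest of the 8 for Rsad2, and Oas3 was not well above background on the saline arrays either. Rtp4, an interferon-induced chaperone, read 4.26 and 4.85 with chrysotile, against 3.19 and 4.06 with amosite, but the saline arrays spanned 2.89 to 4.79 and the difference was 0.93 ± 0.63.

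The interferon-stimulated response element was searched as its core, GAAA, any 2 bases and GAAA again, on both strands of the same 250 bases. Promoters were at hand for 28 genes of the list, 13 of which held the core (46.4%), against 3.46% of all 27025 genes with a promoter. Oas3 and Rsad2 are shown as the named members with a match, and Isg15, chosen after its values were seen, for its 3 overlapping matches. Isg15, a ubiquitin-like modifier, read 4.94 and 5.35 with chrysotile, against 3.99 and 4.50 with amosite (0.90 ± 0.49). Capitals mark the core or its reverse complement.
Oas3 (chr5:120777660-120777909, minus strand): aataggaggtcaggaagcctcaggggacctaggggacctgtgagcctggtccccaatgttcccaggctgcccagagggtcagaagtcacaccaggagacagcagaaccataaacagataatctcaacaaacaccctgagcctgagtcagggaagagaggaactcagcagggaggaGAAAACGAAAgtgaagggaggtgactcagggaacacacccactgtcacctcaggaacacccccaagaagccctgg
Rsad2 (chr12:26456453-26456702, minus strand): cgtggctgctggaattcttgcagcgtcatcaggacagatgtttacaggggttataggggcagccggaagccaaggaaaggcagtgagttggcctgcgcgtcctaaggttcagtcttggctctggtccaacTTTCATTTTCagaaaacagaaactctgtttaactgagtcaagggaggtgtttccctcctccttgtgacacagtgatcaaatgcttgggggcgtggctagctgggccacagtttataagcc
Isg15 (chr4:156200819-156201068, minus strand): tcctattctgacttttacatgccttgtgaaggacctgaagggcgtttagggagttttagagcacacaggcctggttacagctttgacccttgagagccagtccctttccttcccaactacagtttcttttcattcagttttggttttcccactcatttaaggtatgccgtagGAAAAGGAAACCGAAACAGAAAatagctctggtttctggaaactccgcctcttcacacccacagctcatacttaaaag

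**Figure D4:**
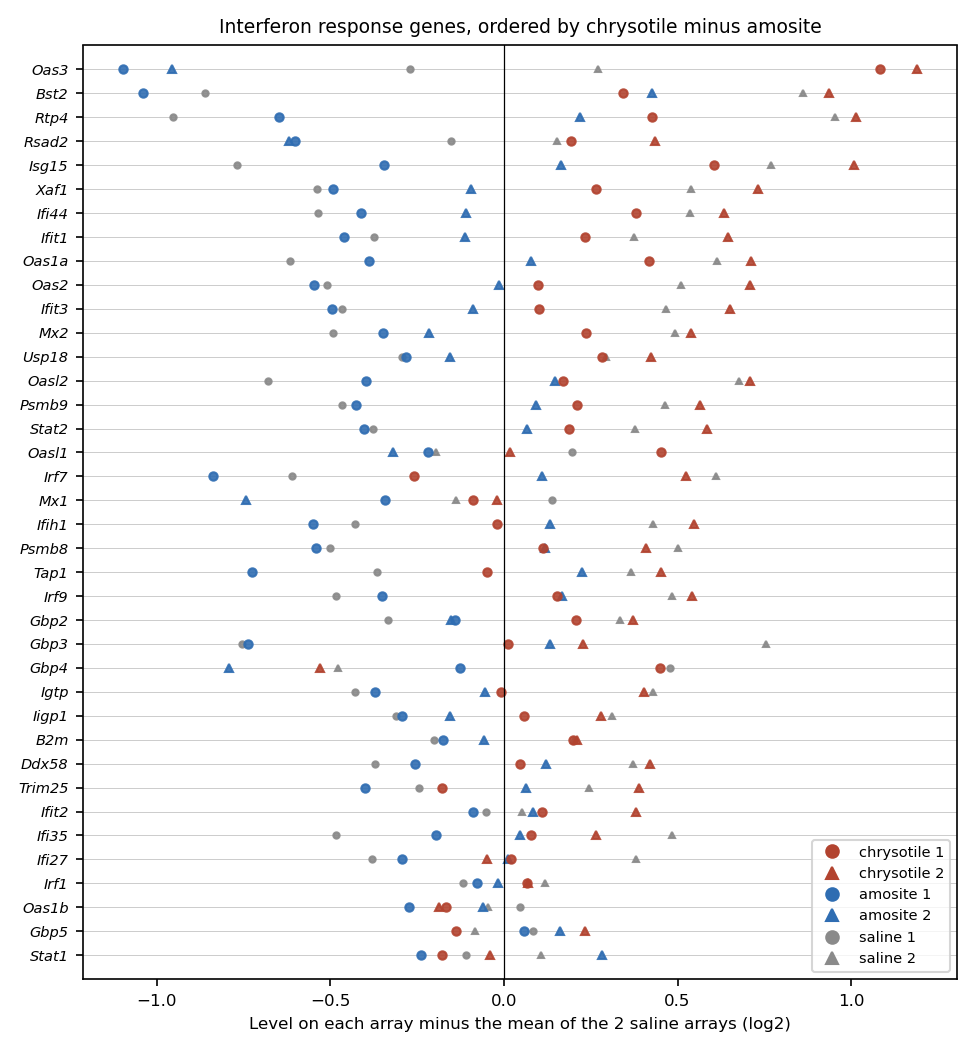
Level on each array minus the mean of the 2 saline arrays (x axis, log2) for 38 interferon response genes (y axis), with the largest chrysotile minus amosite difference at the top. Red is chrysotile, blue amosite and grey saline, circles are replicate 1 and triangles replicate 2, and the 2 saline points lie about as far from each other as chrysotile from amosite for many genes.

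Matrix proteases and the plasminogen system, which cut extracellular matrix and fibrin, had a median difference of 0.53 over 21 measured genes, with 12 apart higher and 1 apart lower, against 17.8% and 15.7% of all genes. The median was 0.16 between the replicate 1 arrays and 0.73 between the replicate 2 arrays, 0.27 without chrysotile replicate 2, 0.24 without amosite replicate 2 and 0.25 with normexp background correction. Mmp3 (stromelysin-1), a metalloproteinase with a broad choice of matrix substrates, read 1.58 and 2.36 with chrysotile, against 0.97 and 0.22 with amosite (1.38 ± 0.39). Mmp3 and the inhibitor Timp3 thus both stood higher on both chrysotile arrays.

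Transcripts of AP-1, a dimer of Fos and Jun proteins, and of other immediate early genes had a median of 0.27 over 25 measured genes. Of these, 12 lay apart higher and 2 apart lower, against 17.8% and 15.7% of all genes. The median was 0.15 between the replicate 1 arrays and 0.40 between the replicate 2 arrays. It was 0.49 without chrysotile replicate 1, 0.20 without chrysotile replicate 2 and also 0.20 without amosite replicate 1. Fosl1 (Fra-1) read -0.19 and 0.78 with chrysotile, against -1.60 and -2.08 with amosite, 0.29 and -0.24 with crocidolite and -1.69 and -2.01 with saline (2.14 ± 0.37, 4.39-fold). Amosite and saline overlapped for Fosl1, and both chrysotile arrays lay above them. Junb had a difference of 1.097 ± 0.54, and Dusp5, a phosphatase that restrains ERK, one of 1.00 ± 0.40. With normexp background correction the difference of Dusp5 was 0.15, and only 1 of the 2 amosite arrays was above background for it. The AP-1 element TGANTCA was present in 6 of 17 promoters of the matrix protease list (35.3%), against 7.82% of all genes with a promoter. That element was not particular to this list. Its share was 30% in the cytokine, 21.4% in the interferon, 16.7% in the NF-kB and 10.5% in the acute-phase list. In the list of TGF-beta, SRF and YAP targets it was 0%. The promoter of Mmp3 is given as the named member with a match, with the element in capitals.
Mmp3 (chr9:7445572-7445821, plus strand): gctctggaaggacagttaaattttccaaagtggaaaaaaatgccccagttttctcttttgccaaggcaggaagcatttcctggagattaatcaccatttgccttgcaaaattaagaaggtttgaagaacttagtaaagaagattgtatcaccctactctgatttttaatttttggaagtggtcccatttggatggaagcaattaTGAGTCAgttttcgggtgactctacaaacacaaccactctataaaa

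Targets of TGF-beta, SRF and YAP, which report contractile and matrix programmes, had positive differences in 26 of 28 measured genes, against 52.4% of all genes, with 16 apart higher, 0 apart lower and a median of 0.24. The shares apart over all genes were 17.8% higher and 15.7% lower. Ccn1, a matrix-associated signalling protein, read 0.21 and 1.38 with chrysotile, against -0.15 and 0.14 with amosite (0.80 ± 0.38), and Tagln (SM22), an actin-binding protein, had a difference of 0.78 ± 0.35. Among growth factors 8 of 26 lay apart higher and 3 lower, to be read against the same shares. Inhba, the activin A subunit, read 0.04 and 0.72 with chrysotile, against -0.56 and -0.71 with amosite (1.02 ± 0.24), and Ereg, an EGF receptor ligand, -2.42 and -2.48 with chrysotile, against -3.19 and -3.56 with amosite and -4.05 and -4.28 with saline (0.92 ± 0.20). For Ereg the order was chrysotile above amosite above saline with no overlap. Hgf, the ligand of Met, had a difference of 0.55 ± 0.23, and Vegfa one of -0.004 ± 0.12, with probes of the gene that differed in sign.

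Several wide differences came from dim probes that were not well above background on either amosite array. Tigit, S100g, Lce1g, Prdm13 and Ptgs2 passed the filter on dim probes through chrysotile alone, so the filter favoured genes higher with chrysotile here. Tigit, an inhibitory receptor of T and NK cells, read -1.09 and -3.65 with chrysotile, against -6.67 and -6.77 with amosite. Its chrysotile mean was at least 5.30-fold higher by the rule given for Oas3. The amosite, crocidolite and saline arrays all lay at -6.43 or lower, and the 2 chrysotile arrays differed widely from each other. S100g, a calcium-binding protein, was at least 2.16-fold higher, Lce1g, a cornified envelope protein, at least 2.55-fold, Tfpi2, a serine protease inhibitor, at least 1.42-fold and Prdm13 at least 1.71-fold. Tfpi2 was above background on 1 of the 2 chrysotile arrays and on both crocidolite arrays, and Prdm13 on both chrysotile arrays and 1 crocidolite array. Ptgs2 (cyclooxygenase-2), which starts prostaglandin synthesis, read -4.56 and -4.65 with chrysotile, against -6.18 and -5.68 with amosite, and was at least 1.12-fold higher. Of 55672 probes with values, 313 were above background on both chrysotile and neither amosite array, and 160 the reverse. Probes above background on both arrays of the group numbered 31748 with chrysotile and 31477 with amosite. Single arrays had 62.8% and 59.8% of probes above background with chrysotile, against 60.5% and 58.6% with amosite. The part of detection in the counts of 313 and 160 was not tested.

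Fewer genes stood lower with chrysotile. Mroh2a, a HEAT-repeat gene, read -2.05 and -2.20 with chrysotile, against -1.002 and -0.08 with amosite, -0.32 and -0.13 with crocidolite and 0.06 and -0.38 with saline (-1.58 ± 0.31). Chrysotile thus stood below all 6 other arrays. Apcdd1, an inhibitor of Wnt signalling, read -3.63 and -3.95 with chrysotile, against -1.96 and -2.74 with amosite (-1.44 ± 0.31), and Itga8, an integrin subunit, -2.57 and -3.48 with chrysotile, against -2.15 and -1.78 with amosite (-1.06 ± 0.30). Hlf, a PAR bZIP factor under clock control, had -2.99 and -3.42 with chrysotile, against -2.49 and -2.40 with amosite (-0.76 ± 0.17), Lrrc2 a difference of -0.64 ± 0.13 and Car1, a carbonic anhydrase, one of -0.58 ± 0.13. The receptor genes Vmn1r176, Olfr18 and Olfr455 and the secreted protein genes Pip and Jchain were above background with amosite and not well above it with chrysotile, with amosite at least 1.28-fold, 1.85-fold, 2.16-fold, 1.79-fold and 1.60-fold higher, in that order. These genes passed the filter on dim probes through amosite alone, so the filter favoured that direction for them.

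Genes of mitochondrial energy use made up the lists with the lowest medians. Of 30 measured oxidative phosphorylation genes, 28 had a negative difference and 16 lay apart with chrysotile lower, against 15.7% of all genes, with 0 apart higher. Their median was -0.15, but it was -0.01 between the replicate 1 arrays and -0.31 between the replicate 2 arrays, and without chrysotile replicate 2 it was -0.03. Ndufs3 of complex I read 7.03 and 6.85 with chrysotile, against 7.26 and 7.32 with amosite (-0.35 ± 0.15), and Sdhb of complex II 6.75 and 6.31 with chrysotile, against 6.81 and 6.92 with amosite (-0.34 ± 0.19). Uqcrc1 of complex III had a difference of -0.32 ± 0.16. Fatty acid oxidation genes had a median of -0.19 (-0.11 without chrysotile replicate 2), with 12 of 21 apart lower and 1 apart higher. The 1 apart higher was Cpt1a, the gate of fatty acid entry into mitochondria, at 2.12 and 2.68 with chrysotile, against 1.91 and 2.04 with amosite (0.42 ± 0.20), whereas Eci1 and Hadhb of the beta-oxidation spiral had -0.38 ± 0.22 and -0.33 ± 0.23. Thermogenic genes had a median of -0.28 over 10 measured members (-0.06 without amosite replicate 2 and -0.55 without amosite replicate 1). Ucp1, Prdm16, Elovl3, Tmem26 and Fgf21 of that list did not pass the filter on dim probes. The measured members were led by Cidea, a lipid droplet protein, at 2.05 and 1.52 with chrysotile, against 2.47 and 2.67 with amosite (-0.79 ± 0.27).

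Adipocyte identity genes had a median of -0.05 over 24 members, with 2 apart higher and 3 apart lower, against 17.8% and 15.7% of all genes. That median was -0.15 with quantile normalization, -0.27 without amosite replicate 1 and 0.04 without amosite replicate 2. Adiponectin (Adipoq) read 9.29 and 9.16 with chrysotile, against 9.22 and 9.28 with amosite, a difference of -0.02 ± 0.17 with a 95% interval of -0.44 to 0.40. Pparg, the master regulator of adipogenesis, differed by -0.05 ± 0.18, the fatty acid carrier Fabp4 by 0.06 ± 0.16 and leptin (Lep) by 0.11 ± 0.53, and each of these 4 signs turned under at least 1 alternative setting. Slc2a4 (GLUT4), the insulin-responsive glucose transporter, read 5.70 and 5.72 with chrysotile, against 5.79 and 6.14 with amosite (-0.25 ± 0.22). Of 21 lipogenesis genes, 6 lay apart lower and 2 higher, against the same shares of all genes. Thrsp (Spot 14), a lipogenic nuclear protein, read 6.09 and 5.00 with chrysotile, against 6.45 and 6.53 with amosite, 5.24 and 5.48 with crocidolite and 6.35 and 6.78 with saline (-0.94 ± 0.36). Acacb, an acetyl-CoA carboxylase, differed by -0.51 ± 0.18 and Fasn, the fatty acid synthase, by -0.28 ± 0.13. Hilpda, a lipid droplet protein that inhibits lipolysis, was higher by 0.54 ± 0.15.

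Amosite carries iron in its lattice and chrysotile little, and cells store, export and sense iron through a small set of genes. Hmox1, the heme oxygenase that frees iron from heme, read 1.56 and 4.15 with chrysotile, against 0.55 and 2.85 with amosite, 1.90 and 4.34 with crocidolite and 0.45 and 2.63 with saline. The fibres overlapped because each group's replicate 2 array was the higher, while within the pairs chrysotile was higher by 1.01 and 1.31. The difference was 1.16 ± 1.35, and 1.16 ± 0.13 with the replicate number as a block, where the limma adjusted p was 0.431. Tfrc, the transferrin receptor, read 1.64 and 1.35 with chrysotile, against 2.03 and 2.57 with amosite, 1.05 and 1.54 with crocidolite and 1.94 and 2.42 with saline (-0.80 ± 0.28, 95% interval -1.49 to -0.12). Steap1, a metalloreductase family member, read -0.37 and -0.41 with chrysotile, against -1.07 and -1.87 with amosite (1.08 ± 0.30). The iron and heme handling list as a whole had a median of 0.09 over 23 measured genes. Of these, 7 lay apart higher and 4 apart lower, against 17.8% and 15.7% of all genes. The NRF2 list had a median of -0.03 over 21 members, with 2 apart higher and 4 lower, against 17.8% and 15.7% of all genes, and its median was 0.01 without chrysotile replicate 2. Nqo1, its usual reporter, differed by 0.22 ± 0.17, and Gstm1, a glutathione transferase, by -0.45 ± 0.14. The metallothionein Mt2 read 6.80 and 7.26 with chrysotile, against 6.39 and 5.97 with amosite (0.85 ± 0.26), and Mt1 differed by 0.30 ± 0.12. The metal response list as a whole had a median of -0.12 over 11 measured genes, 7 of them negative, with 4 apart higher and 6 apart lower. The zinc importer Slc39a4 and the copper transporter Atp7b each differed by -0.31.

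The counts of the other lists are to be read against 17.8% of all genes apart higher and 15.7% apart lower. Hypoxia and glycolysis genes were positive in 25 of 28, with 19 apart higher and 0 lower at a median of 0.21. Ndrg1, a hypoxia target, read 0.25 and 0.69 with chrysotile, against -0.28 and -0.31 with amosite (0.76 ± 0.19), and the carbonic anhydrase Car9 had 0.98 ± 0.59. ER chaperones had 13 of 20 apart higher and 0 lower at a median of 0.17. Calr (calreticulin) read 5.54 and 5.85 with chrysotile, against 5.03 and 5.18 with amosite (0.59 ± 0.16), and Hspa5 (BiP) had 0.38 ± 0.16. All 40 measured cytosolic ribosomal protein genes had a positive difference, at a median of 0.17, but only 6 lay apart higher, against 17.8% of all genes. That median was 0.02 with quantile normalization, 0.05 without chrysotile replicate 1 and also 0.05 without amosite replicate 2. Lysosome, phagosome and autophagy genes, which handle particles taken up, had 14 of 30 apart higher and 2 lower. Their median was 0.17, with 0.26 without chrysotile replicate 1 and 0.12 without chrysotile replicate 2. Scarb2, a lysosomal membrane protein, led them with 0.52 ± 0.19. Integrins and adhesion receptors had 10 of 25 apart higher and 3 lower, with Itga5, the fibronectin receptor subunit, at 0.63 ± 0.26 and Cd44, a hyaluronan receptor, at 0.43 ± 0.14. Collagen and matrix genes had 9 of 30 apart higher and 1 lower. Damage and stress lists lay nearer to the median of all genes: p53 targets at 0.05, heat shock at 0.08, cell cycle at 0.05, the integrated stress response at 0.11 and cholesterol synthesis at -0.01, of which the p53 list alone kept its sign under all 18 alternatives. Cdkn1a (p21), the cell-cycle inhibitor under p53, differed by 0.25 ± 0.23 and Ddit3 (CHOP) by 0.28 ± 0.33.

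**Figure D5:**
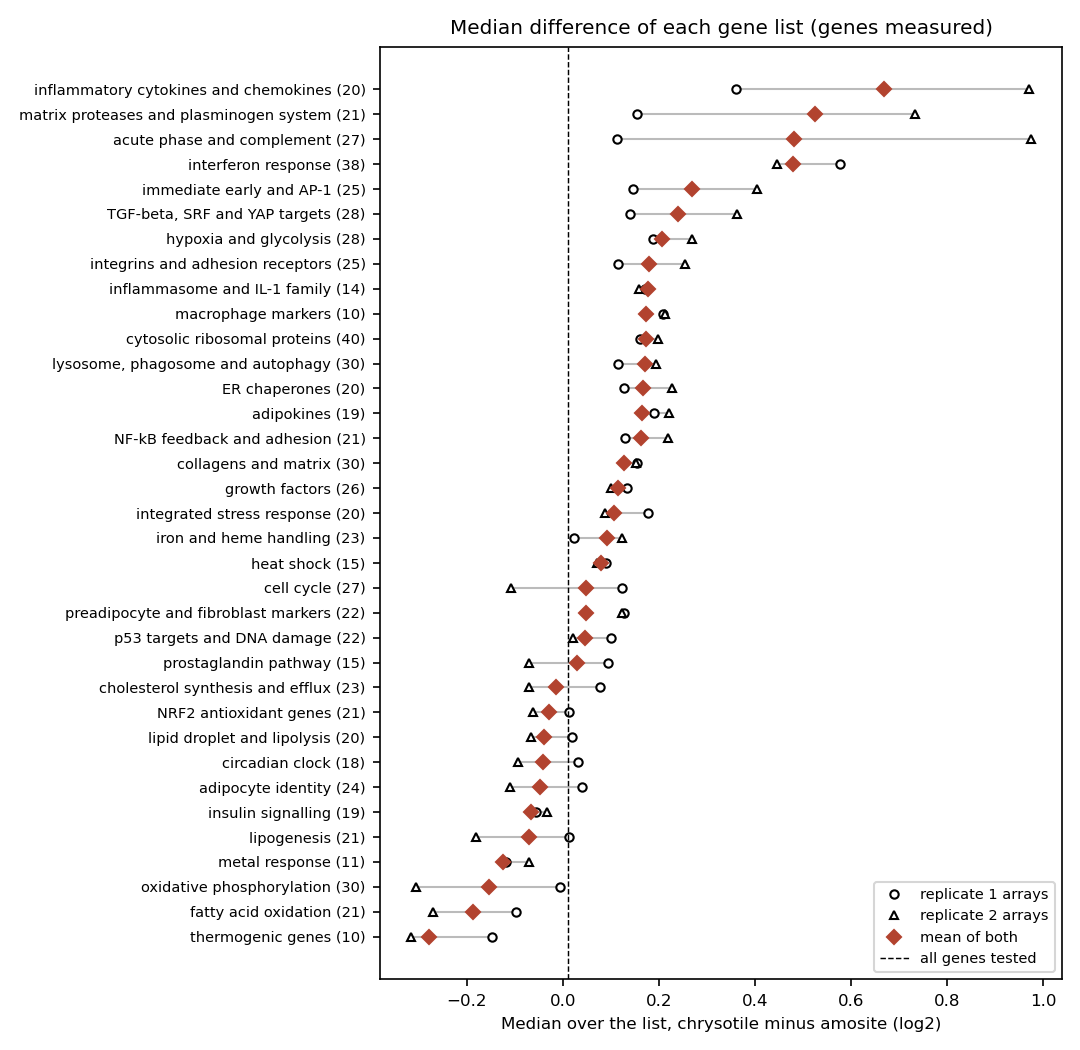
Median chrysotile minus amosite difference (x axis, log2) of 35 gene lists (y axis, with the number of measured genes). Red diamonds are the median over the list, open circles and triangles the median within the replicate 1 and the replicate 2 arrays, and the dashed line the median of all genes tested, with 4 lists at 0.48 or above and 3 lists at -0.15 or below.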

How the data were processed

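Total RNA of 8 samples was labelled with Cy3 and hybridised to 1-colour Agilent mouse arrays, all on 1 slide. The authors deposited a linear intensity for each spot, namely the processed signal of Feature Extraction 10.7 per the submitters' processing notes (10.7.1.1 per the file headers), background-subtracted and detrended by that software and not scaled between arrays. The authors' deposited value table held the same intensity, with a largest difference of 0. Probe positions are on mm9 per the file headers.

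Control spots and 99 to 183 flagged spots an array were dropped, replicate spots averaged, 9 probes with a missing value removed, log2 taken and the 75th percentile of the array subtracted. Probes well above background on both arrays of at least 1 of the 4 groups were kept (33044, 59.3%), and the brightest stood for its gene (22909 genes, 15296 with a symbol, 6638 with several probes). Symbols came from RefSeq accessions where they matched. Differences come from limma 3.58.1 (R 4.3.3, lmFit and eBayes over 8 arrays, 4 residual and 2.22 prior degrees of freedom, two-sided, Benjamini-Hochberg over all genes, threshold 0.05). The same fit was also run on values simulated from its means and spread, with arrays independent of each other, unlike the arrays here. Python 3.11.15 with pandas 2.3.3 and numpy 2.4.6 made the summaries, and matplotlib 3.10.9 the figures.

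Named genes are the 10 smallest p and the 10 largest differences in each direction among genes with a symbol and no overlap. For the largest differences, both arrays of the brighter group also had to be well above background. A panel of 25 genes and up to 3 members of each list with the largest difference and no overlap were added. Not all are printed, and 1 gene that the rule names is not reported here. The comparison, the 35 lists (827 genes, 753 measured) and the panel were chosen with earlier results of these data known. No set test was run. Same-numbered arrays deviated together (correlations of 0.25 to 0.46 over the 6 pairs of groups, with the first principal component, 32.3% of the variance, separating the numbers), so the replicate block, with that number as a term, is an alternative. The other alternatives changed the background correction, the normalization, the filter on dim probes, the choice of probe, the prior, the arrays in the fit and each replicate. Slide and scan could not be tested as batches, with 1 of each. The exon or UTR of a probe was not analysed here.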

Additional observations from a re-analysis of the deposited data

How the results depend on the processing

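The count of called genes stayed at 0 in 17 of 18 alternative settings and was 0 to 1 when 1 array was left out, the call being Tigit without chrysotile replicate 2 (limma adjusted p = 0.00773), where the lone chrysotile array was assumed to vary like the other groups. The replicate block gave 0 calls, with 1969 unadjusted p under 0.05 against 993, and changed no call. The 2-fold counts followed the handling of dim probes. Genes at least 2-fold higher with chrysotile numbered 659 without a filter, 1138 over all probes, 78 with only probes above background on all 8 arrays and 52 with normexp, and 176 to 359 when 1 array was left out (261 without chrysotile replicate 2 and 330 without amosite replicate 1). Genes at least 2-fold lower numbered 407, 750, 24 and 4 in those settings, and 90 to 352 with 1 array left out. Without chrysotile replicate 1 the counts were 359 and 352, so the excess of higher genes was gone. The cause of that change was not tested. Non-overlap is easier to meet with 1 array left in a group, so the counts without a chrysotile or amosite array are not like for like with 176 and 90.

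Of 140 named genes, 133 kept their sign in all 18 settings, but 44 had a difference over 1.5 times smaller with normexp. Among the 44 were Oas3 at 0.47, Tigit at 1.29, Bhlha9 at 0.73, Il1rl1 at 1.06, Junb at 0.52 and Apcdd1 at -0.63. Ereg at 0.37 and Cdc6 at 0.36 were also among them. With normexp Vegfa was at 0.0256 and Adipoq at 0.0161, and with quantile normalization Fabp4 at -0.0284. With 1 array left out, Hmox1 spanned -0.138 to 2.45, Ddit3 -0.000506 to 0.569, Vegfa -0.0842 to 0.0758, Adipoq -0.0853 to 0.0381, Lep -0.370 to 0.584 and Pparg -0.116 to 0.0164. The median of 24 of 36 lists, the panel included, kept its sign, among them the cytokine, acute-phase, interferon, matrix protease, oxidative phosphorylation and fatty acid oxidation lists. Among the 26 named genes with several probes, those of Acsbg1, Cdkn1a, Ctsc and Vegfa differed in sign. Signal over background limits the values of the dim genes.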

Other observations

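Some members of other lists lay apart as well. Prg4 (lubricin), a surface lubricant of joints, read -2.90 and -1.23 with chrysotile, against -3.96 and -4.49 with amosite and -3.29 and -1.93 with saline. Its difference was 2.16 ± 0.65 but 0.95 with normexp background correction, and only 1 of the 2 amosite arrays was above background. Saline overlapped chrysotile for Prg4. Pla2g2e, a secreted phospholipase, read 3.84 and 3.88 with chrysotile, against 3.39 and 2.87 with amosite (0.73 ± 0.27), while Ptgds, the prostaglandin D2 synthase, read -2.86 and -3.25 with chrysotile, against -2.64 and -2.34 with amosite (-0.56 ± 0.21). Among fibroblast markers, Ly6a (Sca-1) stood higher with chrysotile by 0.83 ± 0.27, and Fap, a surface protease, had -0.71 ± 0.28. The clock repressors Bhlhe40 and Bhlhe41 had 0.50 ± 0.21 and 0.36 ± 0.13, on the side opposite to Hlf. Plk2, a kinase under p53, read -0.57 and -0.55 with chrysotile, against -1.14 and -1.21 with amosite and -1.78 and -1.33 with saline (0.61 ± 0.17), and Cdc6, a replication licensing factor, had 0.78 ± 0.21. Pik3r1, the regulatory subunit of PI3 kinase in insulin signalling, read 0.19 and 0.22 with chrysotile, against 0.57 and 0.63 with amosite (-0.39 ± 0.12). None of these passed the test over all genes.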
